A study of Mus musculus with 2 samples.

Results

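T cells that meet antigen also read signals from paired surface proteins, and 10 genes for such proteins were examined in whole lungs of C57BL/6 mice carrying tumour cells. The genes were the ligands Cd274, Pdcd1lg2, Cd80 and Cd86 and the receptors Pdcd1, Ctla4, Icos, Havcr2, Lag3 and Tigit. They were taken by symbol, with every probe set that the platform annotation gives to one of them alone. That gave 15 probe sets for 9 genes, out of 45037 probe sets and 18193 genes on the array. No probe set was annotated to Tigit, so it was not analysed here.

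The mice were 6 to 8 weeks old and received 500000 Lewis lung carcinoma (LLC) cells, a carcinoma line that arose in the lung of a C57BL mouse, in 200 µL through a tail vein. One group received LLC cells overexpressing TDAG8, the proton-sensing receptor encoded by Gpr65, and the other received LLC cells transfected with vector. Lungs were taken on day 19, and total RNA of 10 mice was pooled for each group and measured on 1 array, so the groups are TDAG8 LLC lung and Control LLC lung with 1 array each. Tumour, stroma, blood and resident lung cells were all in the RNA, and neither a lung without LLC cells nor the cells before injection were among the samples. With 1 array per group no value has an error, no test was possible and every difference describes 2 pooled RNAs.

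Full activation of a T cell needs costimulation through CD28, which binds CD80 and CD86 on antigen-presenting cells. CTLA-4 binds the same ligands more tightly and so withholds that signal, while PD-1 is an inhibitory receptor engaged by the products of Cd274 (PD-L1) and Pdcd1lg2 (PD-L2). ICOS is a costimulatory relative of CD28, and TIM-3 (Havcr2), LAG-3 and TIGIT are further inhibitory receptors that accumulate on chronically stimulated T cells. PD-L1 is also made by tumour, endothelial and myeloid cells and is a classic target of interferon-gamma.

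Signals of the members were low, at 110 or less on either array. The median probe set had an intensity of 24.3 on the TDAG8 array and 26.3 on the control array, and a value below its own array's median was treated as background. Of the 15 probe sets, 5 lay above the median on both arrays, 3 on the TDAG8 array only, 1 on the control array only and 6 on neither. At the gene level, each gene being read by its brightest probe set, Cd274, Cd86 and Havcr2 were above background on both arrays. Pdcd1, Ctla4 and Icos were above it on the TDAG8 array only, and Pdcd1lg2, Cd80 and Lag3 lay below it on both.

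**Figure D1:**
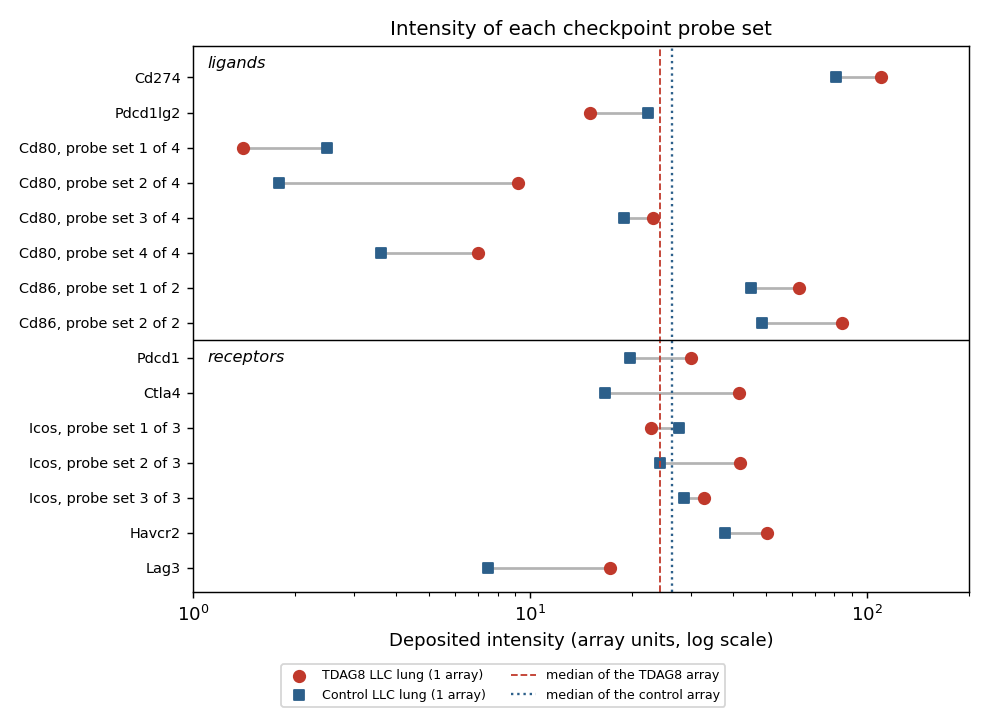
Deposited intensity (array units, log scale) of the 15 probe sets of the checkpoint genes, 1 row each, with ligands above the line and receptors under it. Circles are the TDAG8 LLC lung array and squares the Control LLC lung array, and the vertical lines are the array medians of 24.3 and 26.3. Cd274 and both Cd86 probe sets lie to the right of both lines on both arrays, while all 4 Cd80 probe sets lie to their left.

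None of the 6 members above background on at least 1 array was called 2-fold different in either direction. Ratios are log2 values of TDAG8 LLC lung over Control LLC lung, centred on the median of all genes above background on both arrays, and a value below background was raised to the array median so that the ratio became a bound. Folds are given after centring, intensities as deposited. Among 11944 measured genes, 5.41% reached 2-fold in the higher direction and 1.20% in the lower, against 0 of the 6 measured members in each. Among the 4000 genes whose brighter intensity fell in the members' own range, 30.0 to 110, those shares were 4.53% and 1.82%. For the genes read against the control background, a TDAG8 intensity of at least 50.5 was needed before a ratio could reach 2-fold. Pdcd1, Ctla4 and Icos were all dimmer than that, so their missing the limit was fixed by the background rule. The count of 0 therefore speaks only for Cd274, Cd86 and Havcr2.

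Of the ligands, Cd274 had the brightest reading. Its single probe set had an intensity of 110 on the TDAG8 array, against 80.8 on the control array. The log2 ratio was 0.50, or 1.42-fold higher, and 82.5% of measured genes had a lower ratio. Under the other processing settings the value lay between 0.39 and 0.52, so its direction did not turn in any of them. All of these settings read the same probe set on the same arrays, so that range is no measure of error.

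Cd86, the costimulatory ligand of resting and activated antigen-presenting cells, was read by 2 probe sets. The brighter had 84.0 on the TDAG8 array and 48.8 on the control array, a log2 ratio of 0.84 or 1.79-fold, higher than for 92.2% of measured genes. The other had 62.9 on the TDAG8 array and 45.1 on the control array, a log2 ratio of 0.54. Both readings were higher on the TDAG8 array and differed from each other by 0.30. With the background line at the 65th percentile the control value fell under it, and the log2 ratio of Cd86 had a lower bound of 0.48.

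Such a gap was common on these arrays. Over 1073 genes with exactly 2 probe sets above background and no brighter than Cd274, the median gap between their log2 ratios was 0.29, and the pooled SD within a gene was 0.31 over 1346 genes with several such probe sets. That SD covers disagreement between probe sets of the same 2 RNAs and holds nothing of the spread between mice. Cd86 was at 0.84 by its brighter probe set and at 0.54 by the other, and Cd274 at 0.50, so no order between these genes is drawn.

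The remaining ligands gave no usable ratio. Pdcd1lg2, the second ligand of PD-1, had 15.0 on the TDAG8 array and 22.4 on the control array, both below background. Cd80, which shares its receptors with Cd86, had 4 probe sets, of which the brightest had 23.1 on the TDAG8 array and 19.0 on the control array. Its TDAG8 value was just short of the median of 24.3. The other 3 Cd80 probe sets ran from 1.4 to 9.2 on the TDAG8 array and from 1.8 to 3.6 on the control array. Values that low have no order, and no fold is given for them.

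Among receptors only Havcr2 was above background on both arrays. TIM-3, its product, is found on exhausted T cells and also on macrophages and dendritic cells. Its probe set had 50.6 on the TDAG8 array and 37.9 on the control array, a log2 ratio of 0.47 or 1.39-fold, which is of the size of the Cd274 difference. The value ranged from 0.29 to 0.59 over the settings in which it stayed above background.

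Ctla4 and Pdcd1 crossed the background line between the arrays. Ctla4, the inhibitory receptor of activated and regulatory T cells, had 41.8 on the TDAG8 array and 16.7 on the control array and was at least 1.65-fold higher. Pdcd1, the gene for PD-1, had 30.0 on the TDAG8 array and 19.8 on the control array and was at least 1.19-fold higher. A gene measured through the TDAG8 array alone comes out higher unless its TDAG8 value lies just above the line, so the direction is no result of its own. With the background line at the 30th percentile both genes lay above it on both arrays, and the log2 ratios were 1.40 for Ctla4 and 0.68 for Pdcd1. Ctla4 then passed 2-fold.

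Icos was the member whose probe sets disagreed. The brightest had 42.0 on the TDAG8 array and 24.3 on the control array and was at least 1.66-fold higher. The second, above background on both arrays, had 32.9 on the TDAG8 array and 28.6 on the control array, a log2 ratio of 0.26. The third had 22.8 on the TDAG8 array and 27.6 on the control array and was at least 1.09-fold lower. All 3 readings sat close to the background line, and the gene's log2 ratio was 0.31 when the probe sets were averaged.

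Lag3, an inhibitory receptor that binds MHC class II, had 17.3 on the TDAG8 array and 7.5 on the control array, both below background. With the background line at the 30th percentile its log2 ratio had a lower bound of 1.07, while Cd80 was at 0.36 and Pdcd1lg2 at -0.50. These are readings below the array median, and no direction is drawn from them.

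**Figure D2:**
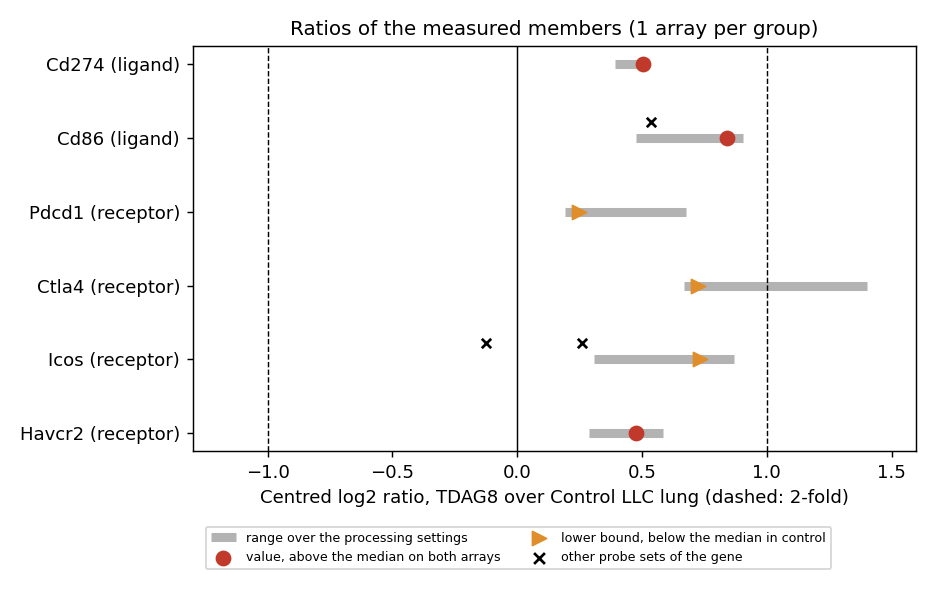
Centred log2 ratio of TDAG8 over Control LLC lung (x axis) for the 6 measured members. Circles are values and triangles lower bounds, grey bars span all processing settings, and crosses are further probe sets of the same gene, the Icos cross left of 0 being above background in the control only. All 6 gene-level marks lie between 0 and the dashed 2-fold line at 1, and the bar of Ctla4 alone crosses that line.

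Ligands and receptors were then set against each other. The 2 measured ligands, Cd274 and Cd86, had a median log2 ratio of 0.67, and the 4 measured receptors a median of 0.60, 3 of them as lower bounds. The difference, ligands minus receptors, was 0.07, with no error to set it against. It turned to -0.02 after loess centring and to -0.43 with the background line at the 30th percentile. No order of ligands and receptors could be read from these arrays. All measured genes had a median of -0.001, with an interquartile range from -0.33 to 0.34. The 3 receptors measured through the TDAG8 array alone were favoured by the background rule to lie above 0, so the members' share above 0 is not a comparison with that figure.

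**Figure D3:**
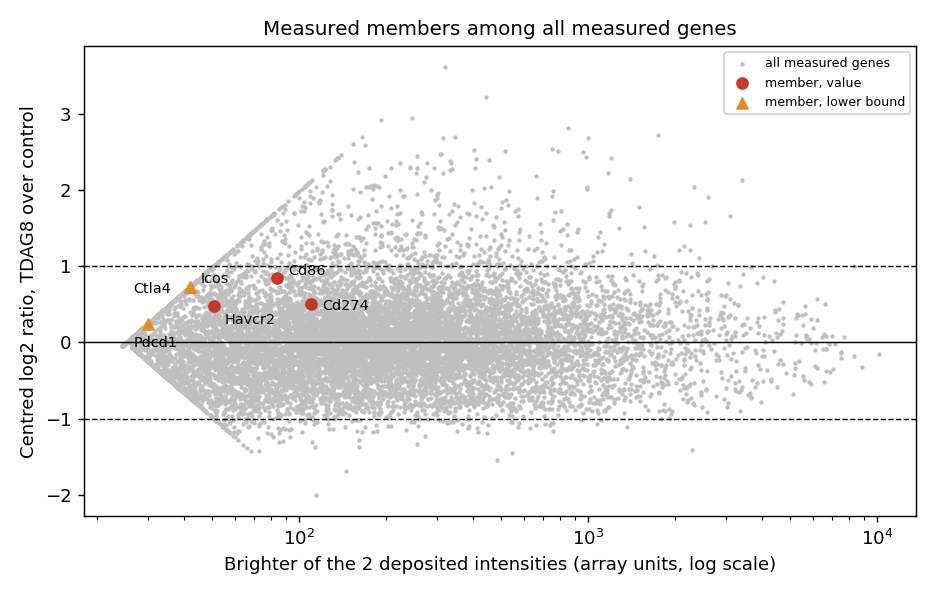
Centred log2 ratio of TDAG8 over Control LLC lung (y axis) against the brighter of the 2 intensities (x axis, log scale) for all 11944 measured genes in grey, with the 6 measured members marked. Circles are values and triangles lower bounds, which lie on the diagonal edge that the background rule draws. Cd86 at 0.84 and Cd274 at 0.50 lie inside the cloud and under the dashed 2-fold line.

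Partners and relatives of the members mostly lay below 0. Of 28 listed genes of the B7 and CD28 families and their partners 17 were measured, 5 above 0 and 12 below, with a median log2 ratio of -0.27. A difference of 2-fold was reached by 1 gene, in the higher direction, beside 5.41% of all measured genes in that direction. That gene was Cd276, the B7 relative B7-H3 that many tumours express. Cd276 had 55.7 on the TDAG8 array and 16.0 on the control array and was at least 2.20-fold higher. With an offset the Cd276 ratio was 0.99, short of 2-fold, and with the background line at the 65th percentile it was not measured. Cd28 itself, the receptor opposing Ctla4 for the same ligands, had 42.9 on the TDAG8 array and 53.5 on the control array, a log2 ratio of -0.26. A second probe set of Cd28 went the other way, with 26.0 on the TDAG8 array and 22.6 on the control array, the control value below background. The ICOS ligand gene Icosl had 77.5 on the TDAG8 array and 106.7 on the control array, a log2 ratio of -0.40.

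Other partners differed by less than 2-fold. Lgals9, a galectin that binds TIM-3, was at 0.29, and the TIGIT ligand genes Pvr and Nectin2 were at 0.03 and -0.38. Pvr had further probe sets that ran higher. Ceacam1, an adhesion molecule reported to pair with TIM-3, was at -0.77 and Cd200, an inhibitory ligand of endothelial and lymphoid cells, at -0.72. Lair1, an inhibitory collagen receptor of leukocytes, was at 0.71, and Cd47, the brightest listed gene, at -0.16.

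In the costimulatory TNF superfamily 8 of 14 listed genes were measured, with 1 at least 2-fold higher and 0 lower, beside 5.41% and 1.20% of all measured genes. The list median was -0.01, which turned positive under loess centring (0.08) and quantile normalization (0.05), among other settings. Tnfrsf9, the activation-induced receptor 4-1BB, had 107.9 on the TDAG8 array and 38.9 on the control array, a log2 ratio of 1.53 or 2.89-fold. A second probe set of Tnfrsf9 had 51.6 on the TDAG8 array and 11.1 on the control array, and the third was below background on both. The Tnfrsf9 ratio was under 2-fold with the mean over probe sets (0.85) and with the background line at the 65th percentile (0.84). With the line at the 30th percentile 2 genes of the list passed. Its ligand gene Tnfsf9 had 63.9 on the TDAG8 array and 36.4 on the control array, a log2 ratio of 0.87. Ltbr, the brightest listed gene, was at -0.12 and Cd27 was at least 1.18-fold lower.

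T cell markers lay on both sides of 0. Of 22 listed genes 16 were measured, 7 above 0 and 9 below, with a median log2 ratio of -0.09. The summed intensity of the list was 1170 on the TDAG8 array against 1196.5 on the control array. Such sums, here and in the lists below, are of uncentred intensities and include genes below background. A gap as small as this one has no direction. Cd3e, a chain of the T cell receptor complex, was at 0.55, Cd3d at 0.27, Cd3g at 0.11 and Cd8a at 0.68, whereas Lef1 was at -0.47 and the brightest listed gene, Il7r, at -0.22. A second probe set of Cd8a had 41.4 on the TDAG8 array and 39.9 on the control array. Cd4 lay below background on both arrays. Zap70, the kinase of T cell receptor signalling, was the 1 gene past 2-fold, beside 5.41% of all measured genes at least 2-fold higher. Zap70 had 75.9 on the TDAG8 array and 32.1 on the control array, 2.46-fold higher. But a second probe set of Zap70 ran the other way, with 35.0 on the TDAG8 array and 49.8 on the control array. The third Zap70 probe set had 31.9 on the TDAG8 array and 23.1 on the control array. Zap70 fell short of 2-fold with the mean over probe sets (0.41), with an offset (0.85) and with the background line at the 65th percentile (0.33). In bulk RNA, fewer cells of a type and less RNA per cell cannot be told apart.

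Regulatory T cell markers were hardly measurable. Foxp3, their defining transcription factor, had 12.2 on the TDAG8 array and 8.9 on the control array, and Il2ra and Ccr8 were likewise below background on both. The 4 measured of 8 listed genes had a median of -0.08. It turned positive with loess centring (0.02) and with the background line at the 30th percentile (0.003), so it has no direction. None was 2-fold different, beside 5.41% of all measured genes higher and 1.20% lower. Ikzf2 was at -0.38, Tnfrsf4 at -0.17 and Tnfrsf18 at 0.15. The summed intensity was 273 on the TDAG8 array against 309 on the control array. Whether the Ctla4 reading came from such cells was not tested.

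The activation and exhaustion list had 13 of 20 genes measured, 4 above 0 and 9 below, with a median of -0.21 and none 2-fold different. Beside that count and the natural killer one below, 5.41% of all measured genes were at least 2-fold higher and 1.20% lower. Tox2, the brightest listed gene, was at -0.86, Entpd1 at -0.66, Nr4a1 at -0.42 and Batf at 0.42. The Tox2 value came from a probe set that can share sequence. Without such probe sets 12 genes of the list were measured, with a median of -0.15. Which cells these readings came from was not tested. Tox, a central factor of T cell exhaustion, and the cytokine genes Ifng, Tnf, Il2, Il10 and Il21 were below background on both arrays. Natural killer and cytotoxic genes had a median of 0.06 over 9 measured of 13 listed, none 2-fold different, with Klrk1 at 0.59, Gzma at -0.49, Klrg1 at -0.29 and the brightest, Ccl5, at 0.20. Their summed intensity was 1099 on the TDAG8 array against 1158 on the control array. B cell markers, another possible source of Cd86, had all 5 measured of 8 listed genes below 0 (6 of 7 with the background line at the 30th percentile), with a median of -0.47, Ms4a1 at -0.64, Fcer2a at -0.61, Blk at -0.47 and summed intensities of 404.5 on the TDAG8 array against 558 on the control array.

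Myeloid markers had the highest median of the lists set beside the members. Of 15 listed monocyte and macrophage genes 13 were measured, 11 were above 0 and 2 below, and the median log2 ratio was 0.85. Past 2-fold were 6 genes, all higher, beside 5.41% of all measured genes in that direction. Msr1, a scavenger receptor, was at least 4.84-fold higher, and the integrin gene Itgam and the Fc receptor gene Fcgr1 were 3.32-fold and 3.27-fold higher. Cd68, Adgre1 and Fcgr3 were also past 2-fold, at 1.27, 1.07 and 1.05 on the log2 scale. Under 2-fold were Adgre1 with an offset (0.95), Fcgr3 with an offset (0.98) and without centring (0.995), and Itgam with the background line at the 65th percentile (0.78). The brightest gene of the list, Lyz2, was at -0.09, and the summed intensity, mostly that of Lyz2, was 10976.5 on the TDAG8 array against 10071 on the control array. Their part in the values of Cd86, Cd274 and Havcr2 was not tested.

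Dendritic cell markers, by contrast, had a median of -0.27 over 9 measured of 13 listed genes, with 7 below 0. At least 2-fold different were 1 gene higher and 1 lower, beside 5.41% and 1.20% of all measured genes. Ccl17, a chemokine of mature dendritic cells, had 64.1 on the TDAG8 array and 144 on the control array and was 2.16-fold lower, a call lost with an offset (-0.88). Ccl22 was at -0.83. Itgax, the gene for CD11c, was at -0.27 and Ccr7 at -0.29. Cd83 was above 0, at 0.20. The other gene above 0 was Fscn1, an actin-bundling protein of mature dendritic cells and of many tumour cells. Fscn1 was the brightest of the list, with 1394 on the TDAG8 array and 327 on the control array, 4.44-fold higher. It made up most of the summed intensity of 2114 on the TDAG8 array against 1264 on the control array.

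The interferon-gamma list joins receptor and signalling genes of the cytokine that induces Cd274 with genes that respond to it. Of 17 listed genes 16 were measured, 13 above 0 and 3 below, with a median of 0.44. The 3 below 0 were the receptor and signalling genes Ifngr1 at -0.24, Jak2 at -0.11 and Stat3 at -0.10. Past 2-fold were 3 genes, all higher, beside 5.41% of all measured genes in that direction. Cxcl9 and Cxcl10, chemokines for activated T cells, had 2.32-fold and 2.23-fold higher values. Cxcl9 had 874 on the TDAG8 array and 393 on the control array, and its second probe set was higher as well, with 80.6 on the TDAG8 array and 26.7 on the control array. Socs1, a feedback inhibitor of the pathway, was at least 2.09-fold higher, a call lost with an offset in place of the background line (0.80) and not measured with the line at the 65th percentile. Gbp2, the brightest listed gene, was at 0.61, Irf1, the factor through which interferon-gamma acts on Cd274, at 0.08. Ifng itself had 18.7 on the TDAG8 array and 14.7 on the control array, both below background.

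MHC class II genes, whose products are the classic ligands of LAG-3, had a median of 0.16 over 7 measured of 8 listed genes. Of these 0 were 2-fold different, beside 5.41% of all measured genes higher and 1.20% lower. H2-Aa was at 0.05, H2-Ab1 at 0.25 and the brightest, Cd74, at 0.03. Ciita, the class II transactivator, was at 0.64 and H2-DMb2 at -0.75.

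**Figure D4:**
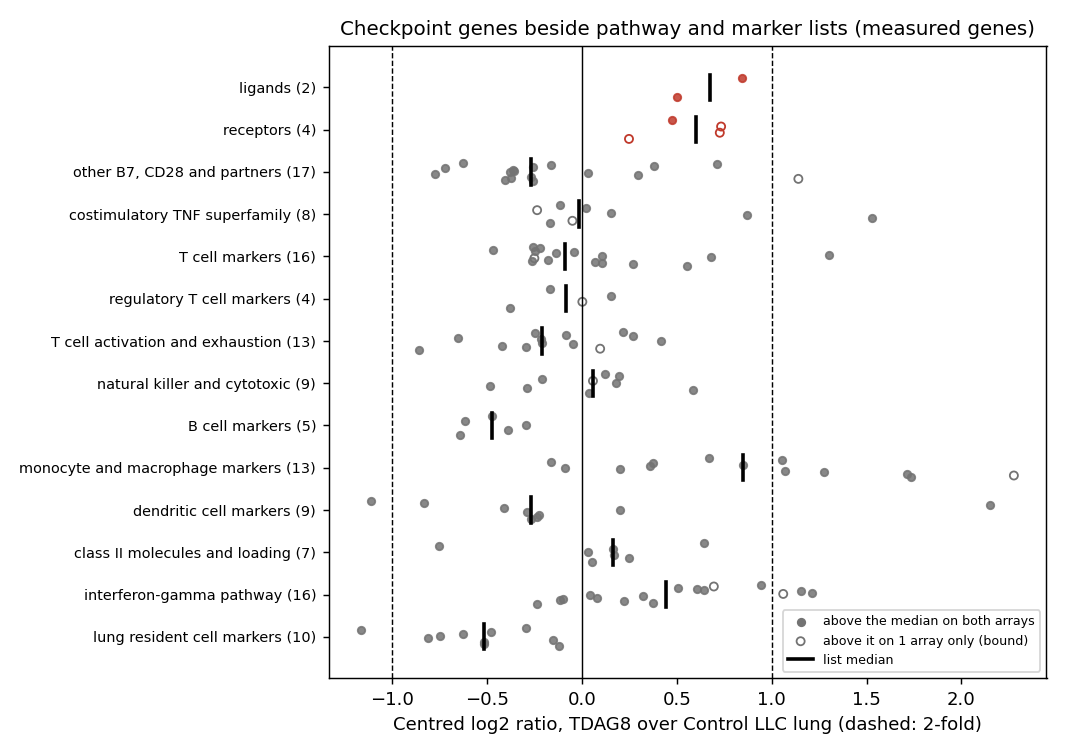
Centred log2 ratio of TDAG8 over Control LLC lung (x axis) for each measured gene of the ligand and receptor groups (red) and of the pathway and marker lists (grey), with the number of measured genes in brackets. Filled circles were above background on both arrays, open circles on 1 only, and black bars are list medians. Both measured ligands are filled circles, at 0.50 and 0.84, while 3 of the 4 receptors are open circles, and the T cell marker median lies at -0.09.

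Gpr65 and markers of the tissue were read in the same values. Gpr65 had 73.9 on the TDAG8 array and 32.3 on the control array, 2.38-fold higher, although whether its probe set reads the transfected sequence is unknown. Whether injected or host cells gave the Gpr65 reading was not tested, so it does not settle the labels. Markers of lung cells were bright on both arrays, with Scgb1a1, the club cell secretory protein, at 8731 on the TDAG8 array and 10112 on the control array. Sftpc, a surfactant protein of alveolar type 2 cells, had 6605 on the TDAG8 array and 7475.5 on the control array. All 10 lung markers were below 0, with a median of -0.52, except that 1 lay above 0 after quantile normalization. Foxj1 was at -0.81 and Cdh5 at -0.75. The smooth muscle gene Myh11 was 2.24-fold lower, or at -0.59 with the mean over probe sets. Myh11 was the 1 lung marker past 2-fold, beside 1.20% of all measured genes at least 2-fold lower.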

How the data were processed

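The deposited files hold linear intensity, 1 value per probe set and array, from biotin-labelled cRNA per the labels' protocols. Over the 45037 probe sets used, after 64 control probe sets were set aside, each column had a mean of 99.7 with 2% trimmed at each end, so the arrays share a scale. How scanner images became intensities is not stated in the labels, and no detection calls were used. In the platform annotation 34945 probe sets had 1 gene symbol, 932 had several and 9160 none. Only the first were used, and current symbols came from RefSeq (GRCm38.p6), where the identifiers of 34741 were found. Both columns matched a labelled sample.

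The brightest probe set by mean log2 intensity stood for a gene. Of 18193 genes 11944 lay above the array median on at least 1 array and 11030 on both. Log2 ratios were centred by -0.06, the median over the genes above it on both, since the column medians differed by -0.11. Intensities are printed as deposited. With 1 array per group no test was run, and precision is limited by that number of arrays. The computation (Python 3.11.15, pandas 2.3.3, statsmodels 0.14.6 for loess) was tested on simulated data. The simulated differences were set only in genes above background on both arrays and brighter than every member. That test therefore covers neither bounds against the background line nor values as dim as the members.

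Named were all members and, in each list, the genes past 2-fold, those with the largest differences and the brightest, besides Gpr65. A few further genes with a clear tie to a member, such as Irf1 and the T cell receptor chains, were chosen after their values were seen. The members and lists were chosen with earlier results of these data known. The settings tried besides were uncentred ratios, quantile normalization, a loess fit (span 0.3), background lines at the 30th and 65th percentile, an offset of the array median, the mean over probe sets, leaving out probe sets that can share sequence, and leaving out members below background on either array.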

Additional observations from a re-analysis of the deposited data

How the results depend on the processing

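Over all alternatives in which they were measured, the log2 ratios of Cd274, Cd86, Havcr2, Ctla4, Pdcd1 and Icos stayed above 0, and no member was 2-fold lower. All settings reuse the same arrays. For Ctla4, Pdcd1 and Icos the background rule favoured that direction wherever only the TDAG8 value was above background. A dimmer Icos probe set, above background in the control only, was at least 1.09-fold lower. The count of members at least 2-fold higher was 0 except with the background line at the 30th percentile, where it was 2, for Ctla4 and Lag3. At that setting the ligand median was 0.44, the receptor median 0.87 and their difference -0.43. More dim values took part there, with all 4 ligands and 5 receptors measured. The receptor median was 0.38 with an offset and 0.40 with the mean over probe sets, and the difference between ligands and receptors was -0.0214 after loess centring. With the line at the 65th percentile 0 receptors were left, so no receptor median could be given. Values are said to have moved at a change of 0.2 or more. No paired analysis was possible because each group had 1 array. Dim signal limits every member: none had a value above 110.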
